A study of Mus musculus with 12 samples.

Results

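Effector CD4 T cells (Teff) were compared with naive CD4 T cells (Naive) by RNA sequencing of cells sorted directly from mice. The comparison uses 6 of the 12 libraries in the series, 3 of each subset, which were chosen by their labels, and all genes in the deposited count table. Cells came from a mixture of spleen and lymph node of untreated mice whose genotype is labelled wildtype C57BL/6 Foxp3-GFP with a polyclonal repertoire, so both subsets carry the same Foxp3-GFP allele. Naive cells were gated as CD44low. Teff cells were gated as CD44high and FOXP3-negative with low surface CD73 and FR4. The other 6 libraries, 3 of Anergic cells (CD44high, FOXP3-negative, CD73high, FR4high and NRP1-positive) and 3 of Treg cells (FOXP3-positive and CD25-positive), entered the statistical fit and are quoted only where they place a Teff or Naive value. No label says whether a replicate is 1 mouse or a pool, or whether replicates came from different mice, so p-values measure the spread between these libraries.

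A naive CD4 T cell has left the thymus and has not met its antigen. It recirculates through lymph nodes under the control of the chemokine receptor CCR7 and the sphingosine phosphate receptor S1PR1, and it is held in quiescence by transcription factors of the TCF, FOXO and KLF families. After antigen recognition it raises the adhesion receptor CD44, divides, and takes up helper programmes named after their master regulators, such as T-bet for Th1, GATA3 for Th2 and BCL6 for follicular helper cells.

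The 6 libraries held between 6909035 and 8193225 counts. Log2 CPM values correlated at 0.9846 to 0.9886 within a subset and at 0.9285 to 0.9373 between a Teff and a Naive library. CPM is the usual depth-adjusted count, computed after scaling library sizes by the trimmed mean of M-values (TMM). Of the 54532 entries in the table, 13393 passed a filter on low counts and were tested. At an adjusted p under 0.05 (quasi-likelihood test of edgeR, Benjamini-Hochberg adjustment over the tested genes), Teff was higher than Naive for 2570 genes and lower for 2100, or 34.9% of the genes tested (19.2% higher and 15.7% lower). A fold of 2 or more was reached by 1642 of the called genes (12.3%), of which 1265 were higher (9.45%) and 377 were lower (2.81%). Among these called genes the large changes lay mostly on the higher side. Only 11205 of the 13393 tested genes passed the filter on the Naive libraries alone. The others passed through libraries of other subsets, so these counts describe the tested genes without supporting a direction. With a filter of 5 CPM in 3 libraries, 990 called genes reached a fold of 2. Scaling libraries by total counts in place of TMM gave 2718 higher and 1485 lower, so that 64.7% of called genes were higher in place of 55.0%, and it moved the median log2 fold change of all tested genes by less than 0.1. The median log2 fold change of all tested genes was 0.01. For 45.2% of tested genes the 3 Teff libraries and the 3 Naive libraries did not overlap in CPM. These shares are the background against which the gene groups below are read.

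**Figure D1:**
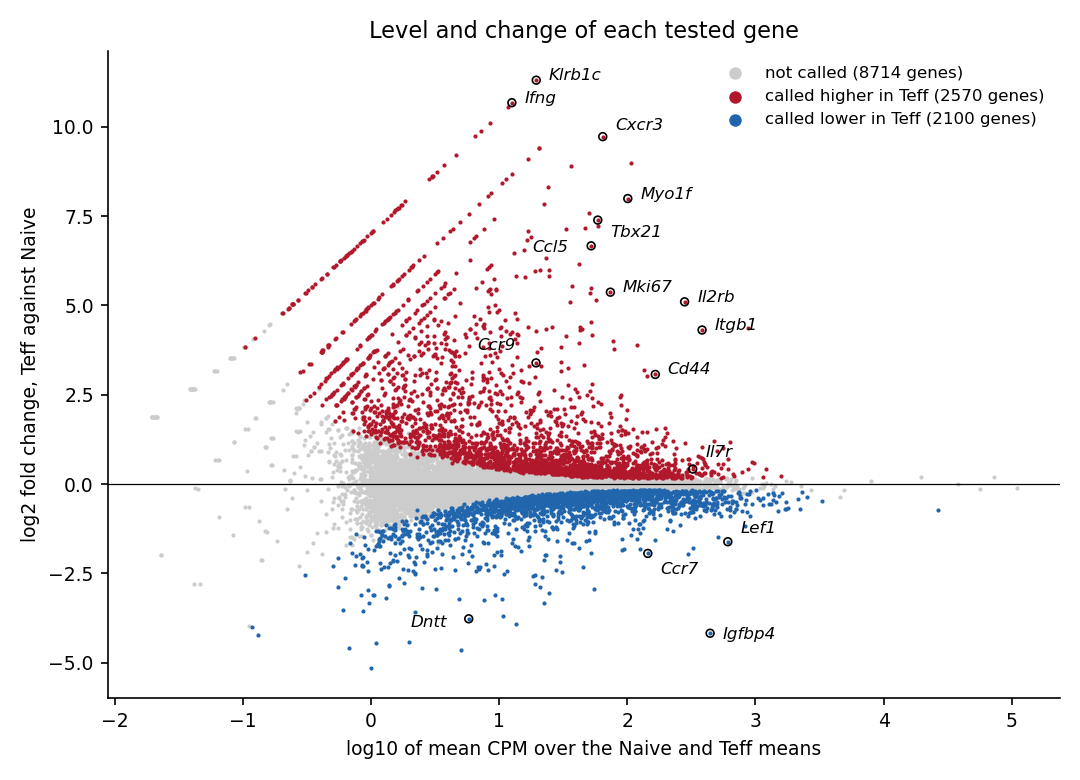
Each point is 1 tested gene, with the log10 of its mean CPM in Naive and Teff on the horizontal axis and its log2 fold change, Teff against Naive, on the vertical axis; 9 tested genes at 0 in all 6 libraries are not drawn. Red points are called higher (2570), blue points are called lower (2100), grey points are not called, and circled genes are described in the text; the diagonal rows at the upper left are genes with 0 or a few counts in Naive, whose fitted fold changes have no firm upper end.

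The cell surface proteins used for the gates are encoded by genes that the sort itself chose, so their levels describe the gates. Cd44 stood at 30.9, 34.6 and 40.4 CPM in the 3 Naive libraries and at 286, 304 and 295 in the 3 Teff libraries. The gate on CD44 was thus visible in every library. Nt5e, which encodes CD73, was 21, 17.2 and 19.9 CPM in Naive and 59.1, 52.9 and 60.4 in Teff, and Izumo1r, which encodes FR4, was 48.5, 51.4 and 49.3 CPM in Naive and 75.4, 72.5 and 73.6 in Teff. Both lay above Naive in every Teff library although Teff cells were gated as low for the proteins, and both were higher again in Anergic cells, at 256 ± 23.5 and 424 ± 4.58 CPM (SD, n = 3). Nrp1, a co-receptor for semaphorins that gated the Anergic subset, was 4, 3.96 and 2.43 CPM in Naive and 71.5, 59.99 and 56.7 in Teff, and its Anergic mean was 333 ± 35 (SD, n = 3). Foxp3, the regulator of Treg cells, was near 0 on both sides, with 1.24, 1.61 and 1.21 CPM in Naive and 0.812, 0.372 and 1.02 in Teff against a mean of 543 ± 16.3 (SD, n = 3) in Treg, and it did not pass the test between Teff and Naive (log2 fold change -0.89 with SE 0.389, adjusted p = 0.0835). Cd4 did not pass either, at 635, 668 and 726 CPM in Naive and 617, 671 and 671 in Teff (adjusted p = 0.607).

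Genes of the naive state and of quiescence were mostly lower in Teff. Of 30 listed genes 29 were tested, all 29 of which also passed the filter on the Naive libraries alone, and 23 were called lower, 2 higher and 4 neither, with a median log2 fold change of -0.86. Lef1, a TCF family factor (chr3:131110471-131224356, GRCm38, with 13.7% of its exon length shared with a gene on the opposite strand), stood at 923, 882 and 947 CPM in Naive and 296, 293 and 310.4 in Teff. The 3 Teff libraries lay at about the same level, far below the lowest Naive library, and Lef1 fell 3.06-fold (log2 fold change -1.61 with SE 0.0639, adjusted p = 1.02e-15). Bach2, a repressor that restrains effector differentiation, was 196, 169 and 166 CPM in Naive and 62.5, 57 and 61.7 in Teff, again without overlap (log2 fold change -1.55 with SE 0.0727, adjusted p = 2.19e-14). Tsc22d3, the glucocorticoid-induced leucine zipper gene, fell 2.39-fold (adjusted p = 2.83e-13). Tcf7, the partner factor of Lef1, named here after its value was seen, fell less, with a log2 fold change of -0.75 (adjusted p = 8.39e-10). In bulk RNA, fewer cells of a kind and less RNA per cell cannot be told apart, and this holds for every gene below.

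**Figure D2:**
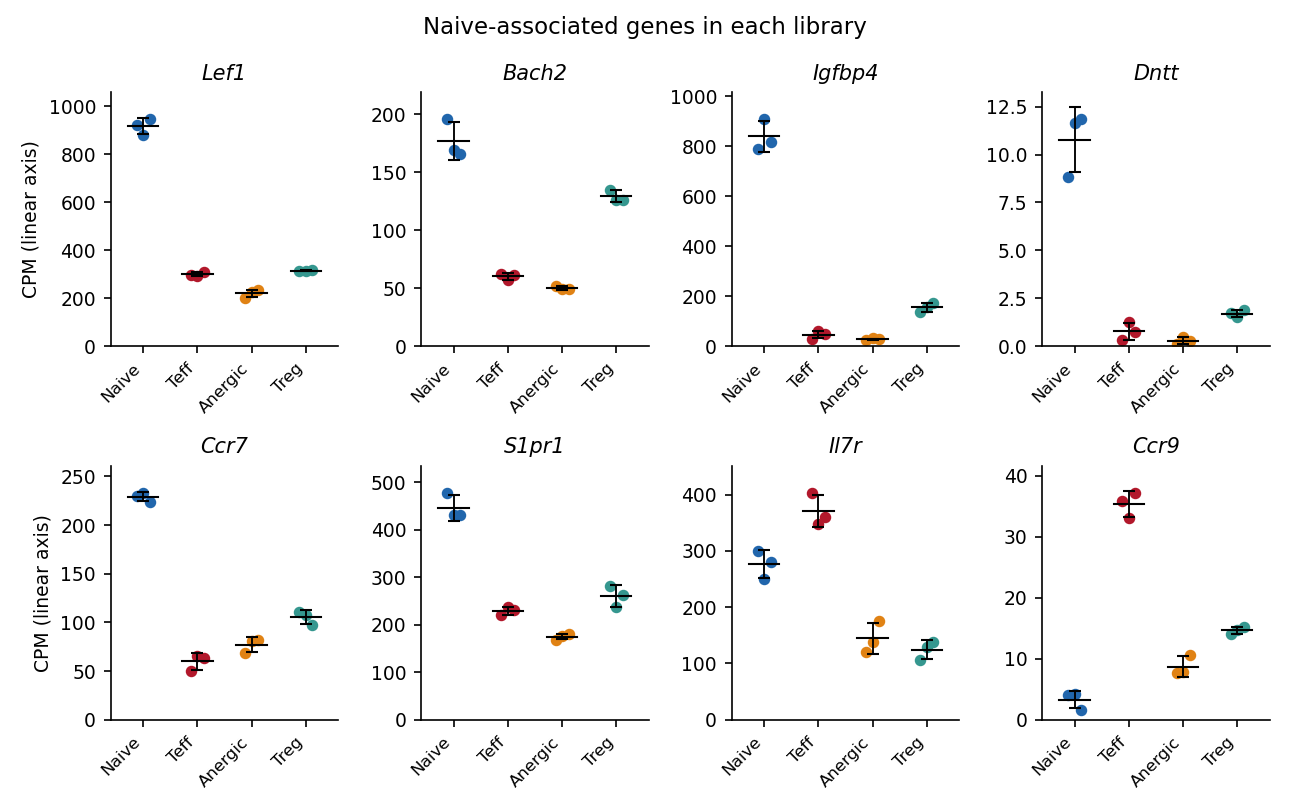
CPM on a linear axis from 0 for 8 genes in the 4 subsets; each point is 1 library, the long bar is the mean and the error bar is 1 SD (n = 3). Lef1, Bach2, Igfbp4, Dntt, Ccr7 and S1pr1 are low in Teff with no Teff library reaching a Naive one, while Il7r and Ccr9 are higher in Teff than in Naive.

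Among genes with at least 10 CPM in 1 of the subsets and no overlap, the ranked fold changes on the lower side began with Igfbp4, also on the naive list. Igfbp4, which encodes a secreted binding protein of insulin-like growth factors (chr11:99041244-99054392), was at 790.2, 908 and 818 CPM in Naive and 29.9, 59.99 and 50.1 in Teff. The lowest Naive library was still far above the highest Teff library, and Igfbp4 fell 18-fold (log2 fold change -4.17 with SE 0.148, adjusted p = 1.27e-16). Dntt, which encodes the terminal transferase that adds untemplated bases to receptor genes in thymocytes, was at 8.82, 11.7 and 11.8 CPM in Naive and 0.348, 1.24 and 0.765 in Teff (log2 fold change -3.77 with SE 0.342, adjusted p = 3.66e-09). Its transcript was therefore present in every sorted Naive library and close to 0 in Teff. Als2cl fell 3.87-fold (adjusted p = 2.04e-14) with 15.5% of its exon length shared with genes on the opposite strand.

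The other genes with the lowest fold changes have varied roles. Cnn3, an actin-binding calponin, went from 25.5 ± 1.75 to 1.69 ± 0.698 CPM (SD, n = 3). Sorcs2, a sorting receptor, went from 19.7 ± 2.61 to 1.51 ± 0.236, and stood at 46 ± 1.96 in Treg (SD, n = 3). Amigo2, an adhesion molecule with leucine-rich repeats, went from 41 ± 1.43 to 4.08 ± 0.333 CPM. In each of these 3 the Teff libraries lay far below the Naive ones. Acvrl1, a receptor kinase of the TGF-beta family, varied among the Teff libraries, at 2.78, 4.71 and 8.41 CPM against 41.6, 46.7 and 42 in Naive. Dapk1, a death-associated kinase, Epb41l1, Nacc2, Pdlim4 and Ggt5 made up the rest, with log2 fold changes of -3.22, -3.25, -3.11, -2.88 and -2.79. Atp1b1, the beta subunit of the sodium pump, was among both the largest falls and the smallest p-values (log2 fold change -2.95 with SE 0.127, adjusted p = 4.53e-15), with 18.7% of its exons shared with the opposite-strand gene Nme7. Patj, a scaffold of cell polarity complexes, had the second smallest adjusted p on the lower side, at 144, 150.3 and 145 CPM in Naive and 41.2, 42 and 42.5 in Teff (log2 fold change -1.81 with SE 0.0658, adjusted p = 2.09e-16).

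A pair of genes on the naive list went the other way. Il7r, the receptor chain for the survival cytokine IL-7, was 299.7, 250.3 and 281 CPM in Naive and 403, 348 and 361 in Teff. Every Teff library exceeded every Naive one, and the rise was small (log2 fold change 0.42 with SE 0.105, adjusted p = 0.00275). The Teff level was also the highest of the 4 subsets, since Anergic and Treg cells stood at 144 ± 28.2 and 124 ± 17.1 CPM (SD, n = 3; Teff above Anergic with adjusted p = 5.46e-10 and above Treg with adjusted p = 3.23e-11). Ccr9, the chemokine receptor for homing to the small intestine, was 4, 4.21 and 1.67 CPM in Naive and 36, 33.1 and 37.2 in Teff (log2 fold change 3.39 with SE 0.188, adjusted p = 5.42e-13), with 21.5% of its exon length shared with neighbouring genes. Txk, Klf3 and Tob1 did not pass the test, with log2 fold changes of -0.03, 0.17 and 0.06 (adjusted p = 0.809, 0.133 and 0.676), although Klf3 was called higher without Naive replicate 1 (adjusted p = 0.0256; adjusted p = 0.021 to 0.575 over the alternatives).

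Th1 and cytotoxic genes were mostly higher in Teff. Of 27 listed genes 21 were tested, and 19 were called higher, 1 lower and 1 neither, with a median log2 fold change of 3.30. Only 11 of the 21 passed the filter on the Naive libraries alone, so the other 10 were tested because another subset expressed them, and the count describes the list without supporting a direction. Tbx21, which encodes T-bet (chr11:97098071-97115331), stood at 0.138, 1.61 and 0.152 CPM in Naive and 118, 118 and 115 in Teff. The 3 Teff libraries were nearly equal and all Naive libraries were near 0 (log2 fold change 7.39 with SE 0.241, adjusted p = 2.73e-17). Ifng, the Th1 cytokine gene (chr10:118441046-118445892), had 0 counts in all 3 Naive libraries and 617 counts over the 3 Teff libraries, at 27.4, 24 and 23.8 CPM. Against a floor of 3 counts over the 3 Naive libraries this was at least 184-fold higher (adjusted p = 7.88e-12), and 25.9% of its exon length is shared with the same-strand entry Gm49751.

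Cxcr3, the receptor for interferon-induced chemokines, had 3 counts in Naive, all in 1 library, and 3153 in Teff, a ratio of 939-fold with a 95% counting interval of 321 to 4554 (adjusted p = 1.14e-20). Ccl5, a chemokine for T cells and monocytes, was 0.551, 1.49 and 0.911 CPM in Naive and 102, 119 and 88.7 in Teff (log2 fold change 6.67 with SE 0.214, adjusted p = 2.12e-17). Il18rap, a chain of the IL-18 receptor, was 0.551, 0.991 and 0.759 CPM in Naive and 131, 100.4 and 123 in Teff (log2 fold change 7.22 with SE 0.194, adjusted p = 6.54e-19). All 3 genes separated the subsets completely. Id2, an inhibitor of E proteins, had a measurable Naive level and still rose, from 32.5, 30.2 and 29.9 CPM to 252, 252 and 252, with nearly equal Teff libraries (log2 fold change 3.03 with SE 0.0691, adjusted p = 3.18e-20). Nkg7, a granule membrane protein gene, had 3 Naive counts against 1181 in Teff, a ratio of 352-fold with a counting interval of 120 to 1707. Prf1, which encodes the pore-forming protein of cytotoxic granules, was the member that went down, from 33.2, 31.5 and 33.7 CPM in Naive to 20.9, 22.8 and 21.4 in Teff (log2 fold change -0.59 with SE 0.13, adjusted p = 0.000785). Crtam, an adhesion receptor of cytotoxic T cells, was not called (-0.46 on the log2 scale, adjusted p = 0.261).

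Markers shared with natural killer (NK) cells and innate-like T cells were higher in Teff as well. Of 10 listed markers 7 were tested and all 7 were called higher, 1 of which passed the filter on the Naive libraries alone. That count again describes the list without supporting a direction. The summed level of the list was 3.585, 5.824 and 5.312 CPM in Naive and 261.5, 197.5 and 196.5 in Teff, against means of 30.3 ± 6.00 in Anergic and 1.81 ± 0.562 in Treg (SD, n = 3). The first Teff library was the highest. Klrb1c, which encodes NK1.1 (chr6:128778485-128789215), had 0 counts in Naive and 52, 29.8 and 34.9 CPM in Teff, at least 286-fold higher. Klrk1, the gene of the activating receptor NKG2D, had 1 count in Naive and 48.5, 35.2 and 39.5 CPM in Teff, a ratio of 904-fold with a counting interval of 162 to 35730. Klrc1, the gene of the inhibitory receptor NKG2A, had 0 counts in Naive and 23.4, 24.2 and 22.2 CPM in Teff, at least 170-fold higher.

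Zbtb16, which encodes PLZF, the regulator of innate-like T cells, was 0.276, 0.868 and 0.304 CPM in Naive and 123, 91.7 and 85 in Teff (log2 fold change 7.60 with SE 0.269, adjusted p = 1.27e-16). The first Teff library was again the highest for Zbtb16, as for Klrb1c and Klrk1. Klrd1, which encodes the CD94 partner of NKG2A, was detected in Naive at 3.17, 4.58 and 4.86 CPM and rose to 8, 10.8 and 8.29 (log2 fold change 1.10 with SE 0.31, adjusted p = 0.00724). Klrc2 and Klre1 were low, with 78 and 41 Teff counts against 0 and 1 in Naive. The untested markers of the list were low. Over the 3 Teff libraries Ncr1 had 0, 1 and 0 counts, Tyrobp 2, 4 and 8, and Fcer1g 8, 8 and 6. Over the 3 Naive libraries they had 0, 1 and 0, then 0, 1 and 0, and 1, 0 and 0 counts. Some NK and innate-like T cells carry the same receptors as activated CD4 T cells, and how much of the Th1 and lectin receptor levels they account for was not tested.

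**Figure D3:**
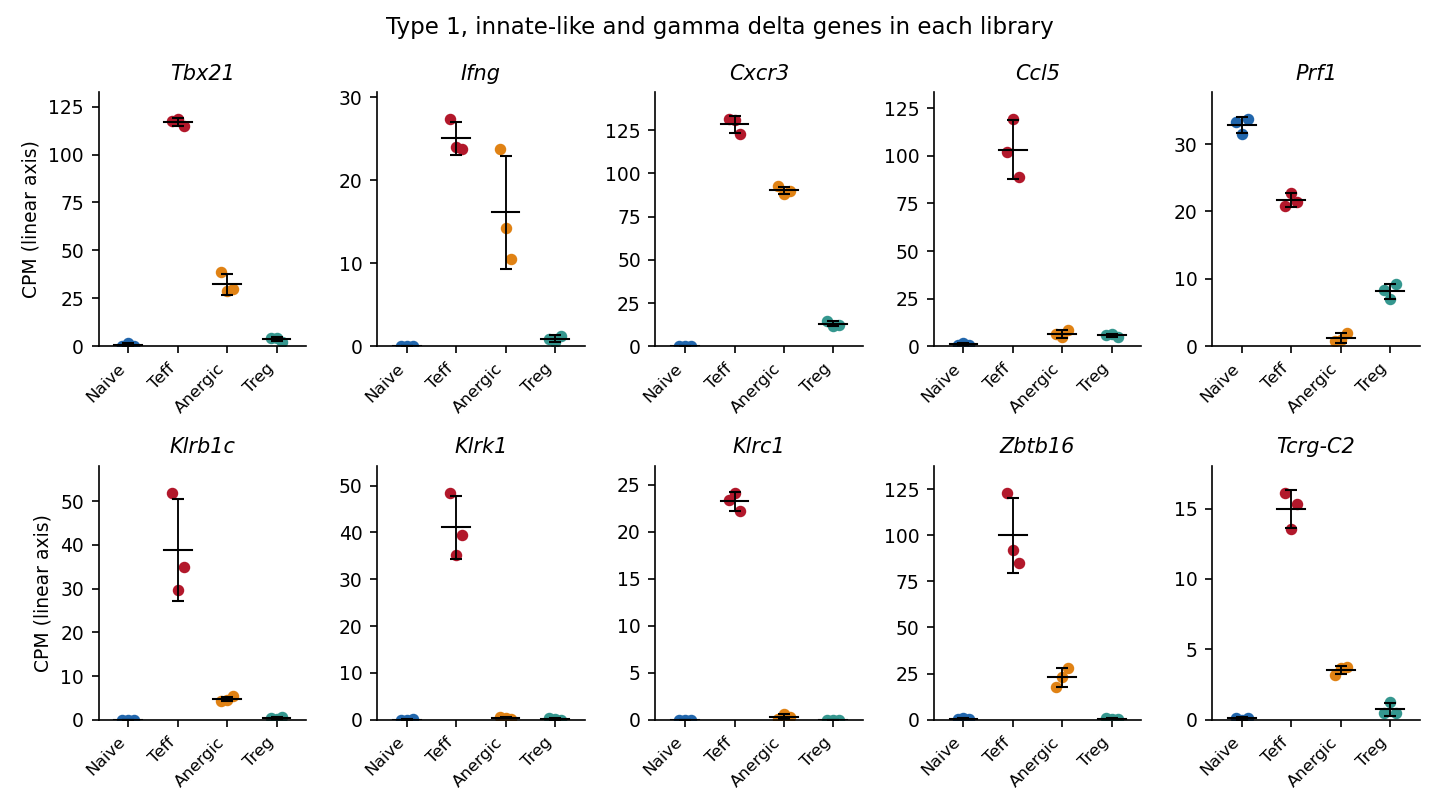
CPM on a linear axis from 0 for 10 genes in the 4 subsets; each point is 1 library, the long bar is the mean and the error bar is 1 SD (n = 3). Naive libraries lie at or near 0 for every gene shown but Prf1, which is highest in Naive, and for the other 9 genes the 3 Teff libraries lie above every library of the other subsets, for Ifng by a narrow margin over 1 Anergic library.

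Receptor segments bear on which T cells were in the gate. Tcrg-C1 and Tcrg-C2, constant segments of the gamma chain, had 1 and 2 counts in Naive and 211 and 368 in Teff, ratios of 188-fold (counting interval 33.5 to 7477) and 164-fold (45.2 to 1362). The delta constant segment Trdc did not pass the test, with 34, 22 and 18 counts in Naive and 14, 26 and 17 in Teff (adjusted p = 0.329). The gamma segments were thus called and the delta segment was not. A few more segments were looked up after the values of the list had been seen. Trav11, the variable segment of the invariant NKT alpha chain, had 1 count in the 6 libraries together, in the first Teff library. The related entry Trav11d had 0 counts in all 6. Traj18, the joining segment of that chain, had 90, 102 and 83 counts in Naive and 121, 91 and 75 in Teff. It was not called (adjusted p = 0.669). Whether invariant NKT cells were in the gate was not tested. Of the beta segments that invariant NKT cells often use, Trbv29 rose (log2 fold change 1.27 with SE 0.256, adjusted p = 0.000336) and Trbv13-2 rose by less (log2 fold change 0.44 with SE 0.109, adjusted p = 0.00252). Segment counts depend on how reads over rearranged genes were assigned, which the sources used here do not give.

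Most tested Th2 and Th17 genes were also called higher in Teff. Of the Th2 list 7 of 10 genes were tested, 1 of which passed the filter on the Naive libraries alone, and 6 were called higher and none lower, with a median of 5.82 on the log2 scale. The others were tested because another subset expressed them, so this count describes the list without supporting a direction. Gata3 was 66.2, 65.5 and 66.3 CPM in Naive and 144, 140.2 and 124 in Teff, a 2.06-fold rise from a level that Naive cells already had (log2 fold change 1.04 with SE 0.0732, adjusted p = 3.48e-11). Ccr4, a chemokine receptor of Th2 and skin-homing cells, was 0.689, 0.868 and 0.911 CPM in Naive and 38, 57.4 and 48.1 in Teff (log2 fold change 5.83 with SE 0.373, adjusted p = 6.89e-12). Il4 had 2 counts in Naive and 161 in Teff, a ratio of 71.9-fold (counting interval 19.6 to 599), and Il1rl1, the IL-33 receptor, had 1 and 84. Il9r, the IL-9 receptor chain, was 0.276, 0.124 and 0.304 CPM in Naive and 15.7, 17.1 and 18.4 in Teff (adjusted p = 1.32e-12). Ccr8 was called (log2 fold change 1.32 with SE 0.428, adjusted p = 0.0188), and the call was lost without any 1 of Naive replicates 1 and 2 or Teff replicates 2 and 3 and by limma voom (adjusted p = 0.000791 to 0.116 over the alternatives). Areg, an epidermal growth factor ligand, was not called, with 2 counts in Naive and 6 in Teff.

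From the Th17 list 7 of 11 genes were tested, 2 of which passed the filter on the Naive libraries alone, and all 7 were called higher, with a median of 4.01. As for the Th2 list, this count describes the list without supporting a direction. Rora was 12, 6.32 and 8.96 CPM in Naive and 169.7, 129.9 and 137 in Teff (log2 fold change 4.01 with SE 0.135, adjusted p = 4.69e-17). Every Teff library of Rora, a nuclear receptor of the ROR family, lay far above every Naive library. Ccr6, the chemokine receptor of Th17 cells, had 0 counts in Naive and 160 in Teff, at least 47.6-fold higher. Ahr, the aryl hydrocarbon receptor, went from 1.6 ± 0.293 to 13.4 ± 1.25 CPM (SD, n = 3), and the ion channel-like genes Tmem176a and Tmem176b rose by 2.69 and 3.31 on the log2 scale (adjusted p = 1.60e-06 and 4.96e-07).

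Follicular helper genes were mostly higher in Teff, while their master regulator Bcl6 was not called. Of 15 listed genes 14 were tested, 11 of which passed on the Naive libraries alone, and 12 were called higher and none lower, with a median of 1.79. Bcl6 did not pass, at 20.5, 19 and 21.4 CPM in Naive and 21.4, 19.5 and 23.6 in Teff (log2 fold change 0.09 with SE 0.108, adjusted p = 0.59), while its Anergic mean was 73.3 ± 5.7 (SD, n = 3). Tox did not pass either (log2 fold change -0.21 with SE 0.0882, adjusted p = 0.0656), although it was called lower without Teff replicate 1 (adjusted p = 0.00895; adjusted p = 0.00895 to 0.281 over the alternatives). Cxcr5, the receptor that leads cells into B cell follicles, was 3.31, 5.33 and 2.88 CPM in Naive and 59.5, 52.8 and 57.2 in Teff (log2 fold change 3.85 with SE 0.131, adjusted p = 5.76e-17). Maf, a factor shared by several helper programmes, was 14.1, 15.2 and 15.2 CPM in Naive and 233, 214 and 218 in Teff (log2 fold change 3.90 with SE 0.099, adjusted p = 2.33e-19). Both genes separated the subsets without overlap. Tox2 went from 1.62 ± 0.98 to 25.7 ± 2.04 CPM, Angptl2 from 1.28 ± 0.787 to 13.1 ± 1.01, and the SLAM family receptor gene Slamf6 from 91.6 ± 8.12 to 179 ± 5.25 (SD, n = 3). All 14 tested members were lower in Teff than in Anergic cells, a contrast that shares the Teff libraries and in which 13.9% of tested genes were lower and 12.7% higher in Teff.

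Of the inhibitory receptor genes 12 of 14 were tested, 7 of which passed on the Naive libraries alone, and 8 were higher and 1 lower, with a median of 1.68. The median was 1.63 with members absent from Naive placed at the bound that their counts allow. Pdcd1, which encodes PD-1, was 4.41, 4.09 and 3.04 CPM in Naive and 20.5, 20.7 and 21.9 in Teff (log2 fold change 2.44 with SE 0.163, adjusted p = 1.48e-11). Cd160, a receptor for HVEM, was 0.276, 1.24 and 0.304 CPM in Naive and 44.1, 35.2 and 44.2 in Teff (log2 fold change 5.98 with SE 0.263, adjusted p = 7.23e-15), and Tigit was 0.414, 0.62 and 0.911 CPM in Naive and 13.8, 14 and 14.7 in Teff (log2 fold change 4.43 with SE 0.34, adjusted p = 1.86e-10). Each of these was above Naive in every Teff library. Entpd1, the gene of the ectonucleotidase CD39, rose to 18 ± 4.71 CPM from 0.542 ± 0.265 (SD, n = 3), and Ctla4 to 5.29 ± 0.366 from 1.25 ± 0.6. Klrg1 was called on 13 Teff counts against 0 (adjusted p = 0.0132), and the call was lost without Teff replicate 3 and by limma voom (adjusted p = 0.000818 to 0.0643 over the alternatives). Without that library 5 members of this list in place of 8 were called higher. Vsir, which encodes VISTA, was the lower member (log2 fold change -0.21 with SE 0.0638, adjusted p = 0.0128), and its call was lost without Naive replicate 2 or Teff replicate 3 and when libraries were scaled by total counts (adjusted p = 0.00413 to 0.155 over the alternatives). Cd5, Cd200r1 and Lair1 were not called, with log2 fold changes of -0.06, -0.06 and 0.22.

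Among costimulatory receptors and ligands all 13 listed genes were tested, 12 of them also passing on the Naive libraries alone, and 10 were higher and 2 lower, with a median of 0.49. Tnfsf14, the ligand LIGHT, was 0.689, 0.496 and 1.06 CPM in Naive and 49.3, 51.1 and 42.8 in Teff (log2 fold change 6.00 with SE 0.213, adjusted p = 1.36e-16). Cd226, the activating receptor DNAM-1, was 31.6, 32.3 and 30.8 CPM in Naive and 153, 148 and 142 in Teff (log2 fold change 2.23 with SE 0.0931, adjusted p = 2.74e-15), and Tnfsf11, the ligand RANKL, was 1.93, 2.48 and 1.97 CPM in Naive and 18, 18.6 and 19.4 in Teff (log2 fold change 3.11 with SE 0.178, adjusted p = 9.90e-13). Each of these 3 genes was higher in every Teff library. Icos rose to 20.2 ± 3.1 CPM from 4.42 ± 1.36 (SD, n = 3), and Cd40lg, the B cell help ligand, rose 1.37-fold (adjusted p = 1.05e-05). Cd27 and Tnfrsf14, the HVEM gene, were lower, with log2 fold changes of -0.40 (adjusted p = 3.76e-05) and -0.47 (adjusted p = 0.0016). Tnfsf8, the CD30 ligand, did not pass, at 32 ± 2.25 CPM in Naive and 34.2 ± 1.2 in Teff, and stood at 205 ± 27.8 in Anergic cells (SD, n = 3).

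Receptors and signal proteins of the common gamma chain cytokines split in direction. All 12 listed genes were tested, 11 of them also passing on the Naive libraries alone, and 6 were higher and 5 lower, with a median of 0.16. Il2rb, the beta chain shared by the IL-2 and IL-15 receptors (chr15:78479256-78495271), was 19, 13.9 and 14.7 CPM in Naive and 545, 543 and 543 in Teff. The Teff libraries were nearly equal, and Il2rb shared the smallest adjusted p of the comparison (log2 fold change 5.10 with SE 0.0882, adjusted p = 2.75e-22). Il2ra, which encodes CD25, was 3.03, 1.61 and 1.97 CPM in Naive and 45.1, 38.8 and 49.6 in Teff (log2 fold change 4.33 with SE 0.209, adjusted p = 3.80e-14), against 709.9 ± 48.9 in Treg (SD, n = 3). Il15ra rose 2.31-fold (adjusted p = 5.83e-05). Il4ra fell 2.5-fold, from 308, 342 and 332 to 132, 136 and 124 CPM (log2 fold change -1.32 with SE 0.0703, adjusted p = 2.31e-13), and Il21r fell 1.61-fold (adjusted p = 6.07e-08). The shared gamma chain gene Il2rg did not pass (log2 fold change -0.04 with SE 0.0858, adjusted p = 0.745). Of the kinases Jak3 was higher and Jak1 lower (0.36 and -0.28 on the log2 scale), and both Stat5a and Stat5b were lower (-0.37 and -0.27).

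Homing genes changed in both directions. Of 30 listed genes 28 were tested, 17 of which passed on the Naive libraries alone, and 19 were higher and 6 lower, with a median of 2.19. Of the 6 lower members, Ccr7, the lymph node entry receptor, was 230.1, 233 and 224 CPM in Naive and 50.3, 65.7 and 63.5 in Teff (log2 fold change -1.94 with SE 0.0868, adjusted p = 1.01e-14). The egress receptor gene S1pr1 was 478, 431 and 432 CPM in Naive and 221, 237 and 232 in Teff (log2 fold change -0.96 with SE 0.069, adjusted p = 5.57e-11). Neither gene overlapped between the subsets. Cxcr4, the receptor for the bone marrow and stromal chemokine CXCL12, fell 1.84-fold (adjusted p = 2.88e-05). Gpr183, an oxysterol receptor, and Itgb3 were called lower by small amounts (adjusted p = 0.0184 and 0.0224). The Gpr183 call was lost without Naive replicate 2 or 3 or Teff replicate 3 (adjusted p = 0.00685 to 0.116 over the alternatives), and the Itgb3 call without Naive replicate 2 or 3 or Teff replicate 1 or 3 (adjusted p = 0.00158 to 0.0906 over the alternatives). Both were also lost with total-count scaling. In Treg cells Ccr7 stood at 105 ± 6.97 CPM and S1pr1 at 260.5 ± 22.5 (SD, n = 3).

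Among the higher members of the homing list was Cxcr6, a receptor of liver- and lung-resident lymphocytes, at 0.414, 0.496 and 0.304 CPM in Naive and 203, 216 and 225 in Teff (log2 fold change 8.98 with SE 0.214, adjusted p = 6.35e-20), and its means in Anergic and Treg cells were 20.6 ± 5.28 and 0.829 ± 0.491 (SD, n = 3). Ccr2, the receptor for monocyte chemoattractant chemokines, had 3 counts in Naive and 1774 in Teff, a ratio of 528-fold (counting interval 180.4 to 2563). The 3 Teff libraries of Ccr2 lay within 1 CPM of each other, at 72.1, 72.8 and 72. Itgb1, the beta-1 integrin chain, was 37, 35.2 and 38.2 CPM in Naive and 719, 759 and 711 in Teff (log2 fold change 4.31 with SE 0.0797, adjusted p = 5.39e-22), with one of the smallest adjusted p-values. Itga1, the collagen-binding partner chain of Itgb1, had 1 count in Naive and 36.9, 18.2 and 20.1 CPM in Teff, where the first library was the highest. Itgb7, S1pr4 and Selplg did not pass the test (log2 fold changes -0.00, 0.07 and -0.09).

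**Figure D4:**
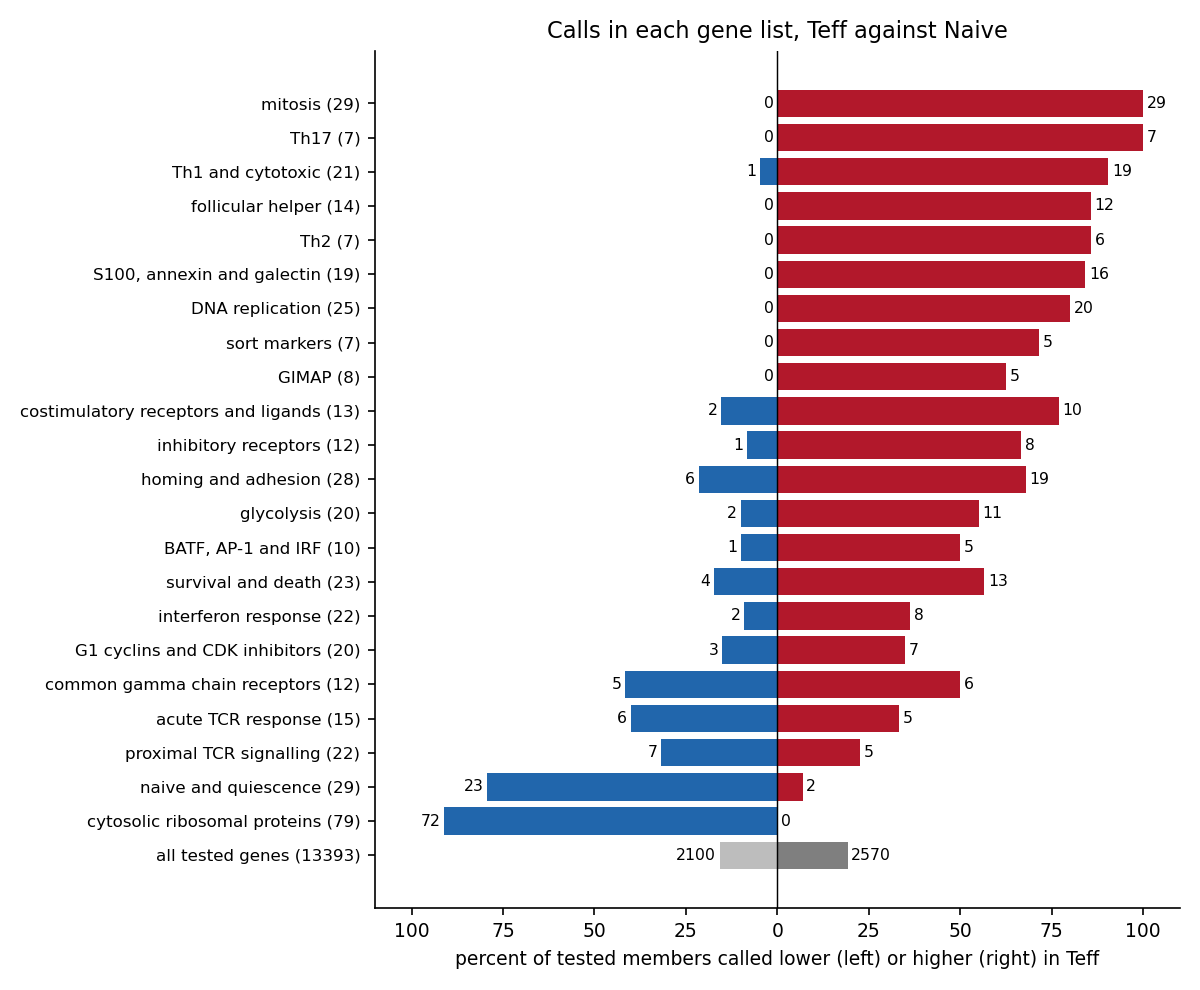
For each of 22 gene lists, bars to the right give the percent of tested members called higher in Teff and bars to the left the percent called lower, with the number of genes at each bar end and the number tested in brackets. The grey bars at the bottom give all 13393 tested genes, of which 19.2% were called higher and 15.7% lower; members that only pass the filter through a subset other than Naive are included, so a long bar to the right is a description of the list.

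The tested cell division genes were mostly higher in Teff. Of 30 mitosis genes 29 were tested and all 29 were called higher, with a median of 3.62. Only 9 of the 29 passed the filter on the Naive libraries alone, and 19 were called with a filter of 5 CPM. The count and the median therefore describe the list, without supporting a direction or a ranking against other lists. The summed level of the list was 49.63, 50.81 and 53.27 CPM in Naive and 438.3, 478.7 and 518.1 in Teff, with means of 328.7 ± 65.0 in Anergic and 266 ± 4.66 in Treg (SD, n = 3). Mki67, which encodes the proliferation antigen Ki-67, was 2.76, 4.21 and 3.34 CPM in Naive and 129.8, 142 and 160.3 in Teff (log2 fold change 5.37 with SE 0.183, adjusted p = 5.87e-17). Top2a, the topoisomerase that separates replicated chromosomes, was 8.41, 9.29 and 6.83 CPM in Naive and 71.9, 90.7 and 87.5 in Teff (log2 fold change 3.33 with SE 0.144, adjusted p = 4.82e-15). Both genes showed all 3 Teff libraries far above all 3 Naive libraries. Racgap1, a regulator of cytokinesis, rose 5.41-fold (log2 fold change 2.43 with SE 0.157, adjusted p = 7.44e-12), and the centromere genes Cenpe and Cenpf rose by 3.10 and 4.40 on the log2 scale.

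DNA replication genes were mostly higher in Teff too. All 25 were tested, 22 of them also passing on the Naive libraries alone, and 20 were higher and none lower, with a median of 0.89. Uhrf1, which carries DNA methylation through replication, was 2.48, 2.6 and 3.64 CPM in Naive and 21.1, 28.9 and 29.8 in Teff (log2 fold change 3.20 with SE 0.198, adjusted p = 3.95e-12). Mcm6, a subunit of the replicative helicase, was 55.4, 60.5 and 59 CPM in Naive and 103, 114 and 112 in Teff (log2 fold change 0.91 with SE 0.0703, adjusted p = 2.03e-10). Mcm2 and Mcm7, subunits of the same helicase, did not pass, and Mcm2 stood at 75.1, 75.1 and 75.6 CPM in Naive and 70.4, 78.1 and 77.4 in Teff (log2 fold change -0.00 with SE 0.0758, adjusted p = 0.998). Pcna, the sliding clamp of the replication fork, did not pass either (log2 fold change 0.05 with SE 0.09, adjusted p = 0.74). Tk1 and Rrm2, which make deoxynucleotides, rose by 3.93 and 2.97 on the log2 scale (adjusted p = 2.06e-08 and 1.34e-08). Chaf1a, a histone chaperone, rose 4.1-fold, with 52.5% of its exon length shared with the opposite-strand gene Ubxn6.

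Promoter sequence was set beside these lists because cell cycle genes are known to be controlled by a few short motifs. The RefSeq promoter table for GRCm38.p6 was searched over the 250 bases before each gene's start, on both strands, for CCAAT (bound by NF-Y), for TTTGAA (the cell cycle homology region, CHR), and for the E2F letters TTCCCGC or TTGGCGC. Of 26 mitosis genes with a promoter in the table, 21 held CCAAT (80.8%) and 8 held the CHR (30.8%). The shares were 34.5% and 16.3% of all 27025 promoters and 37% and 10.6% of the 8879 promoters of tested genes. The CHR share was not particular to mitosis, being 40% in survival and death promoters and 35.3% in interferon response promoters. It was 0% in follicular helper promoters and 3.45% in ribosomal protein promoters. Outside the mitosis and replication lists, the CCAAT share ranged from 0% in Th17 promoters to 57.1% in Th1 and cytotoxic promoters. Of 21 replication genes with a promoter, 14 held CCAAT (66.7%) and 9 held an E2F match (42.9%), against 5.71% of all promoters and 10.6% of those of tested genes for E2F. Genes called higher and lower in Teff as a whole stood near the tested genes, with CCAAT in 36.6% and 35.3% and E2F in 10.3% and 10.6% of their promoters. The T-box letters GGTGTGA were in 2 of 21 Th1 promoters (9.52%), in 2.78% of those of tested genes and in 3.31% of all. This share was not particular to the Th1 list, being 10.5% in proximal TCR signalling and 12.5% in GIMAP promoters. It was 0% in mitosis and DNA replication promoters. The AP-1 letters TGANTCA were in 4.67% of promoters of genes called higher and 3.66% of those called lower. They were in 3.87% of promoters of tested genes and 6.87% of all promoters. A match is a run of letters and not a measured binding site, and no match says only that these letters are not in the window.

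The promoters of 3 mitosis genes and 3 replication genes are shown because they hold the motifs counted above, and they were picked for that after the matches had been counted. Each is the stretch of 150 bases ending at the gene's start, read 5′ to 3′ on the gene's own strand, with CCAAT (or ATTGG, its reverse), TTTGAA (or TTCAAA) and the E2F letters in capitals. The positions in GRCm38.p6 are chr7:135716380-135716529 (minus strand) for Mki67, chr11:99024190-99024339 (minus) for Top2a, chr10:69352913-69353062 (minus) for Cdk1, chr17:56303187-56303336 (plus) for Uhrf1, chr1:128359706-128359855 (minus) for Mcm6 and chr17:56040266-56040415 (plus) for Chaf1a.
Mki67: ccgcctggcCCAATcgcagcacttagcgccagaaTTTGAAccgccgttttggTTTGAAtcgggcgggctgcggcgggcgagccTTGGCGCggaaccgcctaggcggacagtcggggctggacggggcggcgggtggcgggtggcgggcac
Top2a: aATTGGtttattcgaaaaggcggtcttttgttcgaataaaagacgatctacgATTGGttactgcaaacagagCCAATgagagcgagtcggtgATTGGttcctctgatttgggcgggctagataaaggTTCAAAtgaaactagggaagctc
Cdk1: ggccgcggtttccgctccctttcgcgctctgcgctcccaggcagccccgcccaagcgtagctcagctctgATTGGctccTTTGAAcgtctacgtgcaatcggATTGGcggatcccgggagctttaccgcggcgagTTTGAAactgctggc
Uhrf1: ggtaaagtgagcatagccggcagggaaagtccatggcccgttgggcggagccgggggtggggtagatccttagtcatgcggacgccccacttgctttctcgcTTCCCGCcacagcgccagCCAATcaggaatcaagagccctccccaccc
Mcm6: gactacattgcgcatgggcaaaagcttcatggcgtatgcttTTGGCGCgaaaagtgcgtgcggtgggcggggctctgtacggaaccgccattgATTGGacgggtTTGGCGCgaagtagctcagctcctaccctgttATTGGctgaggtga
Chaf1a: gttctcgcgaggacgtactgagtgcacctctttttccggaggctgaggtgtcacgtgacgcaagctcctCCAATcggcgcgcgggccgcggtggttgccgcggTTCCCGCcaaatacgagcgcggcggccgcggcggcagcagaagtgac

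In these windows Top2a holds 4 CCAAT matches and 1 CHR, Mki67 holds 1 and 2, and Cdk1 holds 2 and 2. Mki67 also holds 1 E2F match, and Top2a and Cdk1 hold none. Uhrf1, Mcm6 and Chaf1a hold 1, 2 and 1 E2F matches and no CHR. Cdk1, the mitotic kinase gene, rose by 3.97 on the log2 scale (adjusted p = 3.57e-08).

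Regulators of the G1 phase changed in both directions. Of 22 listed genes 20 were tested, 16 of them also passing on the Naive libraries alone, and 7 were higher and 3 lower, with a median of 0.41. Cdk6, a G1 kinase, was 15.6, 15.2 and 13.4 CPM in Naive and 35, 35 and 32.4 in Teff (log2 fold change 1.21 with SE 0.12, adjusted p = 1.73e-08), and the E2F genes E2f2 and E2f3 rose by 1.11 and 2.25 on the log2 scale. Rbl2, a pocket protein of resting cells, was higher as well, at 127, 107 and 110.5 CPM in Naive and 284, 247 and 272 in Teff (log2 fold change 1.22 with SE 0.0766, adjusted p = 4.68e-12), and 21% of its exon length is shared with opposite-strand genes. Myc fell, from 71.4, 85.4 and 83.2 CPM in Naive to 43.4, 41.1 and 41.6 in Teff (log2 fold change -0.93 with SE 0.099, adjusted p = 5.47e-08). Naive cells thus held the higher Myc level of the pair in every library. Among the inhibitors of cyclin-dependent kinases, Cdkn2c was higher (log2 fold change 2.24 with SE 0.305, adjusted p = 2.41e-06) and Cdkn2d was lower (log2 fold change -0.74 with SE 0.103, adjusted p = 2.92e-06). Cdkn1b was called lower at the edge of the threshold (log2 fold change -0.16 with SE 0.0606, adjusted p = 0.0477), and the call was lost without any 1 of 4 libraries (Naive replicates 1 and 3 and Teff replicates 1 and 3), with either other scaling, with no filter and with only the Teff and Naive libraries (adjusted p = 0.0262 to 0.341 over the alternatives). Ccne2 was called higher (adjusted p = 0.0138) and lost the call without Naive replicate 2 or Teff replicate 2 and by DESeq2 (adjusted p = 0.00984 to 0.132 over the alternatives). Ccnd2, a D-type cyclin gene, did not pass (log2 fold change 0.13 with SE 0.0632, adjusted p = 0.113).

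Most genes of cytosolic ribosomal proteins were lower in Teff, by at most 1.86-fold. All 79 were tested and passed on the Naive libraries alone, and 72 were called lower and none higher, with a median of -0.54. Their summed level was 38810, 41700 and 44230 CPM in Naive and 24930, 29210 and 28720 in Teff, so the subsets did not overlap. The largest fall was that of Rps19, from 634, 711 and 763 to 339.7, 392 and 402 CPM (log2 fold change -0.90 with SE 0.0866, adjusted p = 1.09e-08), followed by Rps20 (log2 fold change -0.88 with SE 0.0852, adjusted p = 1.04e-08). Rpl13a, Rpl22l1 and Rpl7l1 did not pass, with log2 fold changes of -0.07, -0.12 and -0.12. Of 830 processed pseudogenes of all kinds tested, 147 were lower and 33 higher, against 1791 and 2297 of 10651 protein-coding genes. Their lower share was near the 15.7% of all tested genes called lower. Their higher share was below the 19.2% of all tested genes called higher. Pseudogenes of ribosomal protein genes were not counted apart. Short reads of ribosomal protein genes can be shared with their pseudogenes, so single members of the family are uncertain.

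**Figure D5:**
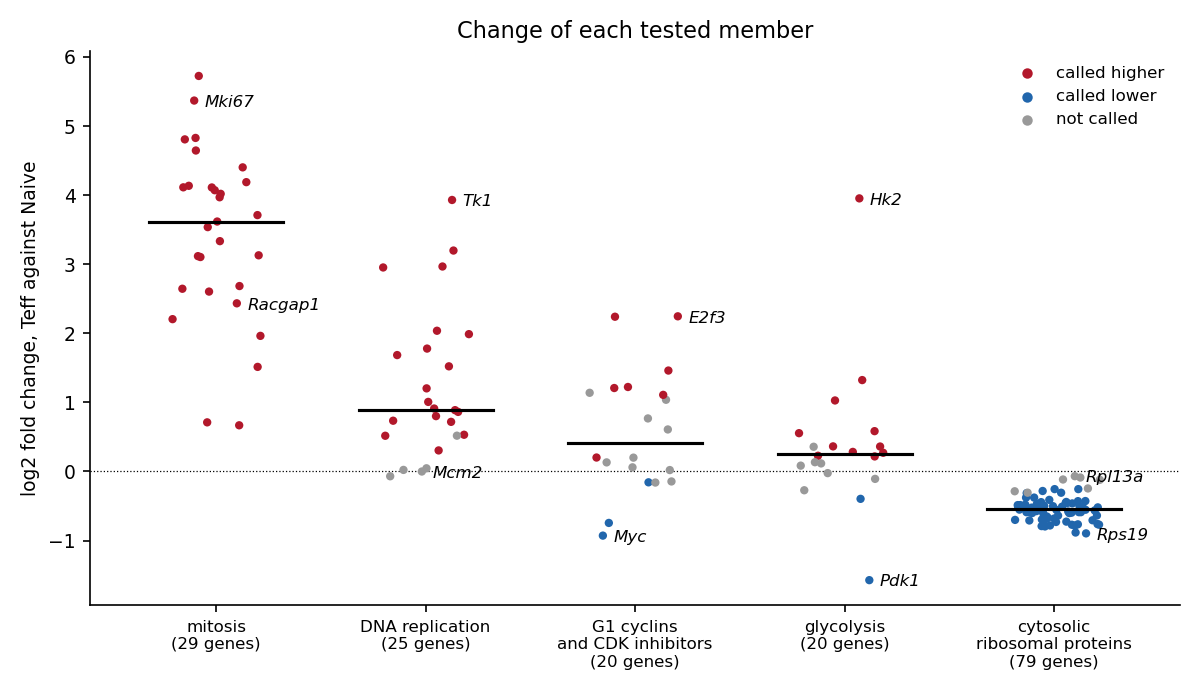
Each point is 1 tested member of 5 lists and its log2 fold change, Teff against Naive, coloured by call; the black bar is the list median (3.62 for mitosis, 0.89 for DNA replication, 0.41 for G1 regulators, 0.25 for glycolysis and -0.54 for ribosomal proteins). All mitosis genes lie above 0, and all ribosomal protein genes lie in a narrow band below 0.

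Most glycolysis genes that were called rose, by small amounts apart from a few. All 20 were tested, 17 of them also passing on the Naive libraries alone, and 11 were higher and 2 lower, with a median of 0.25. Hk2, an inducible hexokinase, was 0.276, 0.744 and 0.152 CPM in Naive and 6.26, 7.06 and 6.38 in Teff (log2 fold change 3.95 with SE 0.362, adjusted p = 4.22e-09), while Hk1, the constitutive form, rose 1.28-fold (adjusted p = 6.54e-05). Slc2a3, the glucose transporter GLUT3, was 39, 33.7 and 30.8 CPM in Naive and 76.5, 67.3 and 67.4 in Teff (log2 fold change 1.03 with SE 0.0892, adjusted p = 1.65e-09). Pfkp, a phosphofructokinase, rose 1.5-fold (adjusted p = 5.29e-08). Pdk1, which encodes a pyruvate dehydrogenase kinase, fell from 259, 238 and 247 to 82.2, 82.8 and 84.9 CPM (log2 fold change -1.57 with SE 0.0711, adjusted p = 1.21e-14), and Eno1 fell 1.32-fold (adjusted p = 0.000211). Pdk1 therefore moved against most of the list, and was lower in Anergic and Treg cells too, at 54.5 ± 5.71 and 96.4 ± 5.21 CPM (SD, n = 3). Pkm, Ldha and Pfkl were not called (adjusted p = 0.827, 0.2 and 0.311).

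S100, annexin and galectin genes, with their partner Ahnak, were mostly higher in Teff. All 19 were tested, 14 of them also passing on the Naive libraries alone, and 16 were higher and none lower, with a median of 1.54. Ahnak, a giant scaffold protein that binds S100A10 and annexin A2, was 82, 80.7 and 78.3 CPM in Naive and 1795, 1565 and 1637 in Teff (log2 fold change 4.37 with SE 0.0857, adjusted p = 1.51e-21). Anxa2 was 1.79, 2.85 and 2.28 CPM in Naive and 48.6, 50.2 and 48.6 in Teff (log2 fold change 4.39 with SE 0.158, adjusted p = 1.63e-16), and S100a10 was 83.4, 84.1 and 90.5 CPM in Naive and 231, 262 and 258 in Teff (log2 fold change 1.54 with SE 0.0864, adjusted p = 6.51e-13). The 3 genes of that complex were higher in every Teff library. S100a6, a calcium-binding protein gene, went from 0.188 ± 0.0999 to 44.8 ± 4.78 CPM (SD, n = 3), and Lgals1, which encodes galectin-1, rose 4.02-fold (adjusted p = 3.17e-14). Anxa5, Anxa7 and Anxa11 were not called, with log2 fold changes of -0.19, 0.18 and 0.21.

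Genes of proximal T cell receptor signalling changed in both directions. All 22 were tested, each also passing on the Naive libraries alone, and 5 were higher and 7 lower, with a median of -0.00 on the log2 scale. The lower count was 4 when libraries were scaled by total counts. Rasgrp1, the activator of RAS, was 395, 373 and 370.5 CPM in Naive and 312, 291 and 302 in Teff (log2 fold change -0.33 with SE 0.0799, adjusted p = 0.00211). Ptpn22, a phosphatase that damps signalling, was the member with the largest change, at 127, 125 and 127 CPM in Naive and 295, 257 and 246 in Teff (log2 fold change 1.08 with SE 0.0737, adjusted p = 2.31e-11). Fyn, Lcp2 and Zap70 were higher by 0.46, 0.46 and 0.38 on the log2 scale. Ptprc, Cd3g and Lck did not pass, and Ptprc, the gene of CD45, was 1711, 1689 and 1684 CPM in Naive and 1768, 1821 and 1790 in Teff. Cd3d and Themis were called in opposite directions (adjusted p = 0.0333 and 0.0429), and the Cd3d call was lost without Naive replicate 2 or 3 or Teff replicate 1 and with total-count scaling (adjusted p = 0.00331 to 0.239 over the alternatives), the Themis call without any 1 of the 6 libraries (adjusted p = 0.0166 to 0.0992 over the alternatives).

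Genes that respond within minutes to hours of receptor signalling were mixed. Of 16 listed genes 15 were tested, all passing on the Naive libraries alone, and 5 were higher and 6 lower, with a median of -0.17. Nr4a1, the orphan receptor gene often used as a reporter of recent signalling, was 96.1, 90.8 and 92.4 CPM in Naive and 53, 50.3 and 45.4 in Teff (log2 fold change -0.91 with SE 0.078, adjusted p = 1.37e-09). It was therefore lower in Teff in every library. Dusp1, a phosphatase of MAP kinases, was higher (log2 fold change 0.58 with SE 0.0753, adjusted p = 1.07e-06), as was Tnfaip3, the NF-κB inhibitor A20 (log2 fold change 0.71 with SE 0.104, adjusted p = 7.18e-06). Fosb and Jun varied within each subset, and Fosb stood at 54.9, 116 and 192 CPM in Naive and 153, 241 and 267 in Teff, with the first library lowest on both sides. The counts of this list moved with the alternatives: 2 members were lower when libraries were scaled by total counts, and 3 were lower without Naive replicate 1, 2 or 3 or Teff replicate 1. The higher count was 3 without Naive replicate 1 or 2 or Teff replicate 2 or 3. Calls of Fosb, Jun, Junb, Cd69, Egr3, Ier2, Nfkbia and Nr4a2 were each lost in at least 1 of the alternatives tried, and those of Nr4a1, Dusp1 and Tnfaip3 in none of them. Egr1 and Fos were not called (adjusted p = 0.28 and 0.44).

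The title of the series names BATF and the death protein BIM, which Bcl2l11 encodes. Batf, an AP-1 factor that pairs with IRF4, was 16.3, 19.6 and 17.9 CPM in Naive and 31.4, 29.8 and 34 in Teff, without overlap (log2 fold change 0.82 with SE 0.135, adjusted p = 3.19e-05). Irf4 was 13.9, 15.7 and 9.26 CPM in Naive and 33.7, 35.7 and 37.9 in Teff (log2 fold change 1.44 with SE 0.136, adjusted p = 6.72e-09), and Irf8 was 4.83, 3.84 and 5.16 CPM in Naive and 15.1, 15.4 and 14.9 in Teff (log2 fold change 1.72 with SE 0.163, adjusted p = 7.42e-09). Both partners lay above Naive in every Teff library, as Batf did. Of the 12 genes of this group 10 were tested, 9 of them also passing on the Naive libraries alone, and 5 were higher and 1 lower, with a median of 0.76. Prdm1, which encodes BLIMP-1, rose 3.23-fold (adjusted p = 1.82e-07) and Ikzf3, which encodes Aiolos, 2.02-fold (adjusted p = 1.75e-11). Bach1, a repressor of AP-1-like sites, fell (log2 fold change -0.39 with SE 0.0962, adjusted p = 0.00235), and Irf1, Irf2 and Fosl2 did not pass.

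Among survival and death genes 23 of 25 were tested, 17 of them also passing on the Naive libraries alone, and 13 were higher and 4 lower, with a median of 0.90. The lower members included genes from both sides of the balance. Bcl2 was 147, 131 and 141 CPM in Naive and 109.5, 82.7 and 77.5 in Teff (log2 fold change -0.63 with SE 0.1, adjusted p = 1.98e-05), and Mcl1 was 476, 493 and 472 CPM in Naive and 303, 338 and 342 in Teff (log2 fold change -0.55 with SE 0.0617, adjusted p = 1.13e-07). These are pro-survival genes, and the other 2 lower members encode proteins that trigger death. Further members that promote death were called higher. Pmaip1, Bik, Bmf and Bak1 rose 5.2-fold, 17.3-fold, 1.87-fold and 1.56-fold (adjusted p = 4.74e-08, 5.21e-05, 0.00261 and 2.90e-05). Of these Bik was low, at 1.82 CPM in Teff. Bbc3, which encodes PUMA, was 13.7, 15 and 16.9 CPM in Naive and 7.54, 10.4 and 9.94 in Teff (log2 fold change -0.71 with SE 0.158, adjusted p = 0.00103). Bcl2l11 was 46, 55.4 and 50.8 CPM in Naive and 42.2, 39.8 and 40.03 in Teff, a fall of 1.25-fold that was called (log2 fold change -0.32 with SE 0.0934, adjusted p = 0.00914) but not without Naive replicate 2 (adjusted p = 0.0754; adjusted p = 0.00457 to 0.0754 over the alternatives). Bcl2l1, which encodes BCL-XL, rose instead, from 16.7, 17.1 and 17.6 to 41.9, 47 and 42.1 CPM (log2 fold change 1.35 with SE 0.103, adjusted p = 1.67e-10), and Bcl2a1d rose to 7.89 ± 0.479 CPM from 0.607 ± 0.206 (SD, n = 3). Bcl2a1d belongs to a set of near-identical copies, among which reads can be shared.

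Inflammatory caspase genes were higher in Teff. The 3 Teff libraries lay above all Naive libraries for both inflammatory caspases. Casp1 was 2.21, 0.372 and 2.12 CPM in Naive and 19.2, 17 and 17.1 in Teff (log2 fold change 3.54 with SE 0.27, adjusted p = 1.61e-10), and Casp4 was 0.138, 1.11 and 0.152 CPM in Naive and 17.4, 12 and 18.4 in Teff (log2 fold change 4.95 with SE 0.336, adjusted p = 2.02e-11). The initiator gene Casp8 did not pass (log2 fold change -0.14 with SE 0.0647, adjusted p = 0.0996), and neither did Fas (adjusted p = 0.753) or Bax (adjusted p = 0.0698), although Bax was called higher without Teff replicate 1 (adjusted p = 0.0221; adjusted p = 0.0221 to 0.23 over the alternatives). Tnfsf10, the death ligand TRAIL, rose 2.31-fold (adjusted p = 7.96e-10).

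Interferon response genes had a small median change. Of 23 genes 22 were tested, all passing on the Naive libraries alone, and 8 were higher and 2 lower, with a median of 0.14. Mx1, an antiviral GTPase, was 3.45, 3.84 and 3.95 CPM in Naive and 28.9, 30.7 and 21.3 in Teff (log2 fold change 2.85 with SE 0.205, adjusted p = 6.04e-11), and Gbp3, a GTPase induced by interferon gamma, was 11.6, 11.8 and 15.2 CPM in Naive and 39.7, 45.7 and 41.8 in Teff (log2 fold change 1.73 with SE 0.109, adjusted p = 4.82e-12). Usp18, which damps interferon signalling, fell (log2 fold change -0.51 with SE 0.118, adjusted p = 0.00141). Oasl2 was called lower (log2 fold change -0.42 with SE 0.157, adjusted p = 0.0402) but lost the call without any 1 of Naive replicates 2 and 3 or Teff replicates 1 and 3, by DESeq2 and with total-count scaling (adjusted p = 0.00734 to 0.242 over the alternatives). Irf9 and Zbp1 did not pass (adjusted p = 0.0565 and 0.886), and Irf9 was called lower without Naive replicate 3 (adjusted p = 0.0470; adjusted p = 0.0386 to 0.363 over the alternatives). The GIMAP genes, which encode GTPases linked to lymphocyte survival, were all tested, and 5 of 8 were higher and none lower, with a median of 0.21. Gimap7 was 44.8, 55.8 and 51 CPM in Naive and 132, 145 and 146 in Teff (log2 fold change 1.48 with SE 0.0805, adjusted p = 3.65e-13) and Gimap4 rose 1.62-fold (adjusted p = 1.11e-09). Gimap1 and Gimap3 were called at small folds, the former lost without Naive replicate 1 or Teff replicate 3 (adjusted p = 0.0063 to 0.081 over the alternatives) and the latter without Naive replicate 2 (adjusted p = 0.00246 to 0.082 over the alternatives).

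Several of the highest fold changes fell outside the lists. Myo1f, a class I myosin of leukocytes, shared the smallest adjusted p of the comparison with Il2rb and was 0.689, 0.744 and 0.911 CPM in Naive and 214, 198 and 190.5 in Teff (log2 fold change 7.99 with SE 0.141, adjusted p = 2.75e-22). Fgl2, a secreted and membrane-bound fibrinogen-like protein, had 1 count in Naive and 35.4, 30.6 and 34.7 CPM in Teff, a ratio of 736-fold (counting interval 132 to 29100). Xcl1, the lymphotactin gene, had 0 counts in Naive and 14.4, 13.4 and 15.8 CPM in Teff, at least 106-fold higher, and shares 18.7% of its exon length with the opposite-strand entry Gm20743. All 3 genes separated the subsets without overlap. Cd93, a surface lectin better known from endothelial and B lineage cells, had 0 counts in Naive and 20.3, 14.8 and 15.8 CPM in Teff, at least 124-fold higher, and Pak6, a kinase of the PAK family, had 0 counts and 14.4, 9.91 and 14.8 CPM, at least 95.3-fold higher. Both were low in the other CD44high subset and in Treg cells, with Anergic means of 0.436 ± 0.262 and 0.888 ± 0.35 CPM and Treg means of 0.0337 ± 0.0583 and 0.0845 ± 0.146 (SD, n = 3).

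Markers of other cells were examined in the same libraries. Cd8b1 was lower in Teff, at 16.7, 12.6 and 16.2 CPM in Naive and 3.6, 3.59 and 5.1 in Teff (log2 fold change -1.89 with SE 0.192, adjusted p = 2.53e-08), while Cd8a had at most 3 counts in a Naive library and 9 in a Teff library. The B cell list held 9 genes, of which 5 were tested, and it summed to 218 ± 16.8 CPM in Naive and 190.4 ± 8.39 in Teff (SD, n = 3). Ighm, the immunoglobulin M heavy chain constant region, made up most of it, at 214 ± 15.9 and 174 ± 5.82 CPM. Cd22, a receptor known from B cells, had 2 counts in Naive and 310 in Teff (adjusted p = 1.13e-11) while Ms4a1, the defining B cell gene that encodes CD20, had 1, 1 and 0 counts in Naive and 2, 1 and 4 in Teff. Pax5 was called higher (adjusted p = 0.0191) at under 2 CPM and lost its call without Naive replicate 2 or Teff replicate 3 and by DESeq2 (adjusted p = 0.0186 to 0.116 over the alternatives). Ighm was called lower by 1.23-fold (adjusted p = 0.0152), and was no longer called without Naive replicate 2 or 3 or Teff replicate 2 and with total-count scaling (adjusted p = 0.000642 to 0.0913 over the alternatives).

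The plasma cell list summed to 35.2 ± 2.23 CPM in Naive and 63.9 ± 6.99 in Teff (SD, n = 3). Its called members were 3 of 3 tested, all higher. Igkc, the kappa light chain constant region, was 2.76, 1.49 and 3.95 CPM in Naive and 23, 12.5 and 23.5 in Teff (log2 fold change 2.88 with SE 0.367, adjusted p = 9.04e-07), and Jchain was 1.24, 0.372 and 0.607 CPM in Naive and 4.41, 3.22 and 6.5 in Teff (log2 fold change 2.66 with SE 0.47, adjusted p = 7.94e-05). The Anergic and Treg means of Igkc were 17.7 ± 6.18 and 18.4 ± 8.29 CPM (SD, n = 3). Xbp1 was called higher (adjusted p = 0.00816), and this was lost when Teff replicate 1 was left out (adjusted p = 0.00151 to 0.0562 over the alternatives). The myeloid list of 11 genes summed to 8.11 ± 0.588 CPM in Naive and 14.03 ± 1.06 in Teff (SD, n = 3), with Lyz2 at 0.827, 0.991 and 0.304 CPM in Naive and 6.15, 5.58 and 5.23 in Teff (log2 fold change 2.93 with SE 0.398, adjusted p = 2.28e-06), Csf1r higher (adjusted p = 0.00133) and Itgam lower (adjusted p = 0.0114). The Itgam call was lost without Naive replicate 3 or Teff replicate 2 and by DESeq2 (adjusted p = 0.00738 to 0.0731 over the alternatives), and 68.7% of its exon length is shared with another gene. Erythroid genes summed to 0.345 ± 0.494 CPM in Naive and 0.169 ± 0.195 in Teff and none was tested. Pecam1 was the tested gene of the stromal and endothelial list, and fell 1.94-fold (adjusted p = 3.52e-11). Genes of T cell identity summed to 4348 ± 255 CPM in Naive and 4081 ± 237 in Teff (SD, n = 3), and 1 of 12 was higher and 4 lower, among them Trbc2, whose call was lost without Naive replicate 2 or 3 or Teff replicate 1 or 2, by DESeq2 and with total-count scaling (adjusted p = 0.00582 to 0.234 over the alternatives). Whether other cells contributed to any of the differences above was not tested.

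Markers of Treg cells moved in both directions in the FOXP3-negative Teff gate. Ikzf2, which encodes Helios, was 5.38, 2.85 and 4.25 CPM in Naive and 92.5, 80.1 and 79.4 in Teff (log2 fold change 4.35 with SE 0.169, adjusted p = 7.40e-16), against 532 ± 8.1 in Treg (SD, n = 3). Capg rose 2.06-fold (adjusted p = 2.19e-06) and Ebi3 had 0 counts in Naive and 40 in Teff, at least 11.9-fold higher. Gpr83 and Ikzf4 fell, from 7.03, 7.31 and 8.5 to 1.04, 1.61 and 1.66 CPM for Gpr83 (log2 fold change -2.40 with SE 0.199, adjusted p = 7.86e-10) and 2.6-fold for Ikzf4 (adjusted p = 6.33e-05). Lrrc32, the receptor for latent TGF-beta on Treg cells, had 0 counts in all 6 libraries. All 7 genes of the list were lower in Teff than in Treg cells, a contrast in which 15% of tested genes were lower and 14.1% higher in Teff.

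The other subsets place the difference between Teff and Naive. Against the same Naive libraries, 25% of tested genes were higher and 21.3% lower in Anergic cells, and 19% were higher and 13.9% lower in Treg cells. These contrasts share the Naive libraries with the one described here, so their values are only set side by side. Of the naive and quiescence genes 24 were lower in Anergic cells and 23 in Treg cells, as 23 were in Teff, and of the 29 tested mitosis genes 28 and 27 were higher. Of the 21 tested Th1 and cytotoxic genes 16 were higher in Anergic and 11 in Treg cells than in Naive. In contrasts that share the Teff libraries, 15 of the 21 were higher and 3 lower in Teff than in Anergic cells, and 19 were higher and none lower in Teff than in Treg cells. For ribosomal protein genes 76 of 79 were lower in Anergic and 44 in Treg cells than in Naive, and 58 were lower in Teff than in Treg. The 7 tested NK and innate-like markers were higher in Teff than in Anergic and than in Treg cells, 4 of them were higher in Anergic cells than in Naive, and 1 in Treg cells.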

How the data were processed

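Whole-number counts per gene for 12 libraries were deposited by the authors in 1 table. Per the labels' protocols, RNA was made into libraries with a stranded total RNA kit of low input, and per the submitters' processing notes HISAT2, featureCounts and the builds GRCm38 and mm10 were used. Which annotation featureCounts read, and whether it used strand, is not given in the sources used here. Reads of genes that overlap on opposite strands can therefore be shared between them. Reads in abundant RNA entries made up 18.5% to 21.1% of the counts in the 6 libraries compared. The entry Gm23935, which is not among them, held a further 9.95% to 11.7%. Of 54532 entries, 53719 matched 1 gene of GENCODE M21 by name, from which coordinates and shared exon length were taken, and 27 date-like names held 0.1817% of the counts.

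Genes were filtered with edgeR's default rule (a minimum of 1.23 CPM), scaled by TMM and tested by quasi-likelihood in edgeR 4.0.16 (R 4.3.3), with all 4 subsets sharing 1 estimate of the spread and p-values adjusted by Benjamini-Hochberg over 13393 genes. The common biological coefficient of variation was 0.0764. On simulated counts for this comparison over the same 13393 genes, 99% of 100 genes changed 2-fold and 100% of 100 changed 4-fold were called, with 4 false calls. The simulation gave every gene the common spread and changed only genes with a Naive mean of 5 CPM or more. It therefore does not cover genes with a wider spread or a lower level. Alternatives used DESeq2 1.42.0, limma 3.58.1 (voom), other scalings and filters, and left out single libraries. Folds of genes with 0 Naive counts use a floor of 3 counts over the 3 libraries, and counting intervals are exact at 95% and cover counting error only.

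Gene lists and the members described were chosen with earlier results of these data known. Genes named are the sort markers, Batf and Bcl2l11, the 12 highest and 12 lowest folds at 10 CPM or more without overlap, the 6 smallest p-values in each direction, up to 6 called members per direction and 3 not called from each list, and called markers of other cells. The ranked choices skipped receptor segments, pseudogenes, ribosomal genes and entries with only predicted or RIKEN names. Tcf7, Cdk1, Pmaip1, Bik, Bmf, Bak1 and the receptor segments lie outside this rule. Values of a few list members are not reported here, although the list counts include them.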

Additional observations from a re-analysis of the deposited data

How the results depend on the processing

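The counts of genes called higher, lower and with a fold of 2 or more (2570, 2100 and 1642) stayed within 1.5 times under every alternative run but 1: with a filter of 5 CPM in 3 libraries, which tested 10105 genes, 990 reached a fold of 2. Without any 1 of the 6 libraries the counts ranged from 2287 to 2441 higher, 1755 to 1900 lower and 1576 to 1675 with a fold of 2. DESeq2 called 2341 higher and 1689 lower, limma voom 2487 and 2104, and scaling by total counts 2718 and 1485 (64.7% higher). The 2 alternatives chosen after seeing the data, without the abundant RNA entries and Gm23935 and without Anergic replicate 3, gave 2565 and 2127 and 2644 and 2119. No gene named by the stated rule changed direction. The labels do not say whether replicate numbers pair the samples, and the main fit used no pairing. Deviations of same-numbered Teff and Naive libraries correlated at 0.204, 0.0649 and 0.0846. Those of differently numbered libraries correlated at -0.164 to 0.0931, the highest being Teff replicate 2 with Naive replicate 3. Whether same-numbered libraries share a source was not tested. With the replicate number as a block, 2757 genes were higher, 2320 lower and 1659 changed by a fold of 2 or more. The block also called Egr1, Ccnd2, Lck, Klf3, Irf9, Rb1 and Tox (adjusted p = 0.0291, 0.0464, 0.0452, 0.0210, 0.0386, 0.0345 and 0.0192), which had not passed without it. A count of 0 in a library bounds a level only by the depth of that library, and genes near 1 CPM carry the widest errors.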
